A study of Chlamydomonas reinhardtii with 9 samples.

Results

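The step from 4 to 8 h without iron was described in cells of the green alga Chlamydomonas reinhardtii by setting the RNA of cells kept for 8 h in medium lacking iron against that of cells kept there for 4 h. A transcript entered when its mean level reached 1 RPKM (reads counted per kilobase of a transcript and per unit of library size) at 8 h or at 4 h. This held for 12452 of the 17301 transcripts measured. The lowest of these passed with 1.00 RPKM in the higher of its groups, and the highest of the 4849 transcripts left outside had 0.9997 RPKM. Each time was represented by 2 columns of values, and changes were taken within duplicate 1 and within duplicate 2.

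Both groups were strain CC-4532 (2137), grown in continuous light in liquid TAP, a medium with acetate. Both had been washed and moved to fresh TAP without its iron source, Fe-EDTA, and had spent 8 h or 4 h there. They belonged to a course of 9 times and 18 columns, from 0 to 48 h. A culture supplied with iron at the same times was not among the samples, so loss of iron, age of the culture and transfer to fresh medium cannot be told apart. The columns of a time are called biological duplicates in the design text, while 1 sample is registered per time, and p-values measure only the spread between such columns. RNA came from whole cultures, in which fewer cells carrying a transcript and less RNA per cell cannot be told apart.

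Iron is a cofactor of the photosystems, the cytochrome complexes, ferredoxin and many enzymes of respiration. Chlamydomonas that lacks it reduces ferric iron at the cell surface, re-oxidises it with a multicopper oxidase and imports it through a permease, and secretes proteins that hold iron near the cell. Iron-poor cells of this alga are also known to replace iron enzymes where they can, to remodel the photosynthetic apparatus and to grow more slowly.

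The library sizes, worked out from the deposited values, were 23.24 M and 25.35 M reads at 8 h and 27.51 M and 26.11 M at 4 h. Over the course they ran from 13.21 M to 33.45 M. Reads worked out per transcript summed to slightly more than these sizes, 102.24 and 101.64% at 8 h and 102.7 and 101.89% at 4 h. Across transcripts, which are not independent of each other, the duplicates correlated at 0.988 at 8 h and 0.9855 at 4 h on the log2 scale. Of the tested transcripts, 94.7% lay within 1.5-fold between duplicates at 8 h and 93.4% at 4 h. The iron-responsive ferric reductase gene FRE1 averaged 0.200, 558 and 1511 RPKM at 0, 4 and 8 h.

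More transcripts fell than rose. With limma-trend on log2(RPKM + 1), 222 of 12452 transcripts were higher at 8 h (1.78%) and 607 were lower (4.87%), where a call needed an adjusted p below 0.05 and a 2-fold difference. All 829 (6.66%) moved the same way in both duplicates, which the call itself largely requires. Most transcripts moved little, with a median log2 change of 0.01 and quartiles of -0.32 and 0.25, and only 10 rose and 20 fell by 4-fold or more. Without the 2-fold minimum, 2154 were higher (17.3%) and 3025 lower (24.3%), 41.6% in all, so many differences were regular in the duplicates but small. The added 1 RPKM understates the change of weakly expressed transcripts, and the count is sensitive to it (392 higher and 1077 lower with 0.1 added, 93 and 213 with 5 added). Of the transcripts called, 26 of the higher ones had a mean under 1 RPKM at 4 h and 85 of the lower ones a mean under 1 RPKM at 8 h, so they entered only through the group where they were high. Without transcripts of that kind, 196 were higher and 522 lower. A gene symbol or description was given for 69 of the higher and 235 of the lower transcripts.

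**Figure D1:**
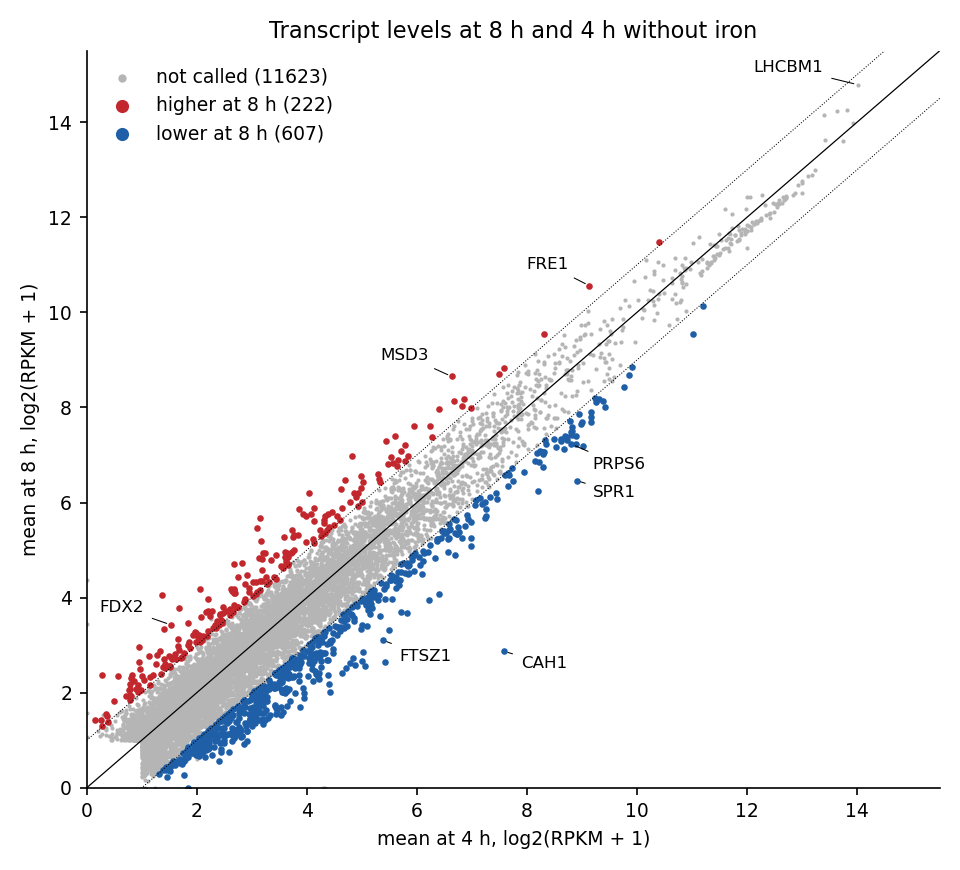
Mean level of each tested transcript at 8 h (vertical axis) and 4 h (horizontal axis), both as log2(RPKM + 1). Red points are the 222 transcripts called higher at 8 h and blue points the 607 called lower, the solid line marks equal levels and the dotted lines a 2-fold difference, and the called transcripts form a wider band below the line than above it.

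Of 7 iron uptake genes, whose median at 4 h was 2.64 above 0 h on the log2 scale, 1 rose further, the reductase gene FRE1 (Cre04.g227400), and 0 fell, beside 1.78% and 4.87% of all transcripts. FRE1, a ferric-chelate reductase that makes iron available for uptake, had 1297 and 1724 RPKM in duplicates 1 and 2 at 8 h, against 481 and 636 RPKM at 4 h. Both values at 8 h lay above both at 4 h (a log2 change of 1.43 with SE 0.22, adjusted p = 0.0002 by limma-trend), with means of 1511 ± 302 RPKM at 8 h and 558 ± 110 RPKM at 4 h (SD, n = 2 each). The permease FTR1 (Cre03.g192050) had 845 and 895 RPKM at 8 h and 513 and 585 RPKM at 4 h, a log2 change of 0.67. Its partner FOX1 (Cre09.g393150), the multicopper ferroxidase, had 706 and 661 RPKM at 8 h and 491 and 460.5 RPKM at 4 h, a log2 change of 0.52. These 2 passed the adjusted p (0.0029 and 0.0059) but not the 2-fold minimum, and FOX2, a second multicopper oxidase, stood likewise at 0.54 on the log2 scale (adjusted p = 0.0012).

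The secreted iron-assimilating protein gene FEA1 (Cre12.g546550), the most abundant of the group, had 4874 and 4331 RPKM at 8 h, against 4130 and 3915 RPKM at 4 h (log2 change 0.19, adjusted p = 0.70). IRT1 (Cre12.g530400), which codes for a ZIP-type transporter, had 29.5 and 16.85 RPKM at 8 h and 28.4 and 11.9 RPKM at 4 h, and its groups overlapped (log2 change 0.26, adjusted p = 0.68). NRAMP1, described as a manganese transport protein, had the only negative change of the list, -0.36 (adjusted p = 0.16). The 7 genes summed to 7766 and 7646 RPKM at 8 h and to 5658 and 5627 RPKM at 4 h, and their median log2 change was 0.52, beside 0.01 over all transcripts tested.

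Of 16 tested genes of iron storage and iron-sulfur cluster assembly, 1 was called higher (6.25%, beside 1.78% of all transcripts). This was FER2 (Cre13.g574500), which codes for a ferritin subunit, an iron-storing protein. It was rare, with 1.71 and 2.16 RPKM at 8 h, from 72 and 99 reads, against 0.221 and 0.338 RPKM at 4 h, from 11 and 16 reads (log2 change 1.19). It entered only through 8 h, where it was high, and among the 15 members with at least 1 RPKM at both times 0 were called. The more abundant ferritin gene FER1 had a log2 change of -0.06. No member was called lower, though 5 of the 16 (31.25%, beside 24.3% of all transcripts) were lower by the adjusted p alone, among them SUFC, SUFE and SUFD of the plastid assembly system, with log2 changes between -0.99 and -0.89. Up to 2 of the list were called lower when 1 column was left out (2 if duplicate 2 of 4 h or duplicate 1 of 8 h was dropped, and 1 if duplicate 2 of 8 h was).

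The largest increase among called transcripts with a symbol or description was in a gene of superoxide removal. MSD3 (Cre16.g676150), a manganese superoxide dismutase that removes superoxide, had 386 and 417 RPKM at 8 h, against 87.7 and 108 RPKM at 4 h. All values at 8 h were above those at 4 h (log2 change 2.03, SE 0.25, adjusted p = 3.3e-05). A second gene for such an enzyme, MSD2 (Cre13.g605150), had 103 and 119 RPKM at 8 h and 37.1 and 49.96 RPKM at 4 h (log2 change 1.34, SE 0.14). MSD1, named after its values were seen, had a log2 change of 0.65 and was not called. The heme-binding protein gene SOUL1 and the glutathione peroxidase gene GPX5, whose enzyme removes peroxides, rose by 1.28 and 1.13 on the log2 scale. These were the 4 called of 28 tested genes for superoxide dismutases, catalases, peroxidases and related proteins. That is 14.3% higher and 0% lower, beside 1.78% and 4.87% of all transcripts. FSD1, the iron superoxide dismutase, had a log2 change of -0.45, and the median of the list was 0.13. NTR2, an NADPH-dependent thioredoxin reductase, rose by 1.40, while the thioredoxin-like TRX10 fell by 1.28. The other 19 of 21 tested thioredoxins, glutaredoxins and related genes were not called, so 4.76% were higher and 4.76% lower.

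**Figure D2:**
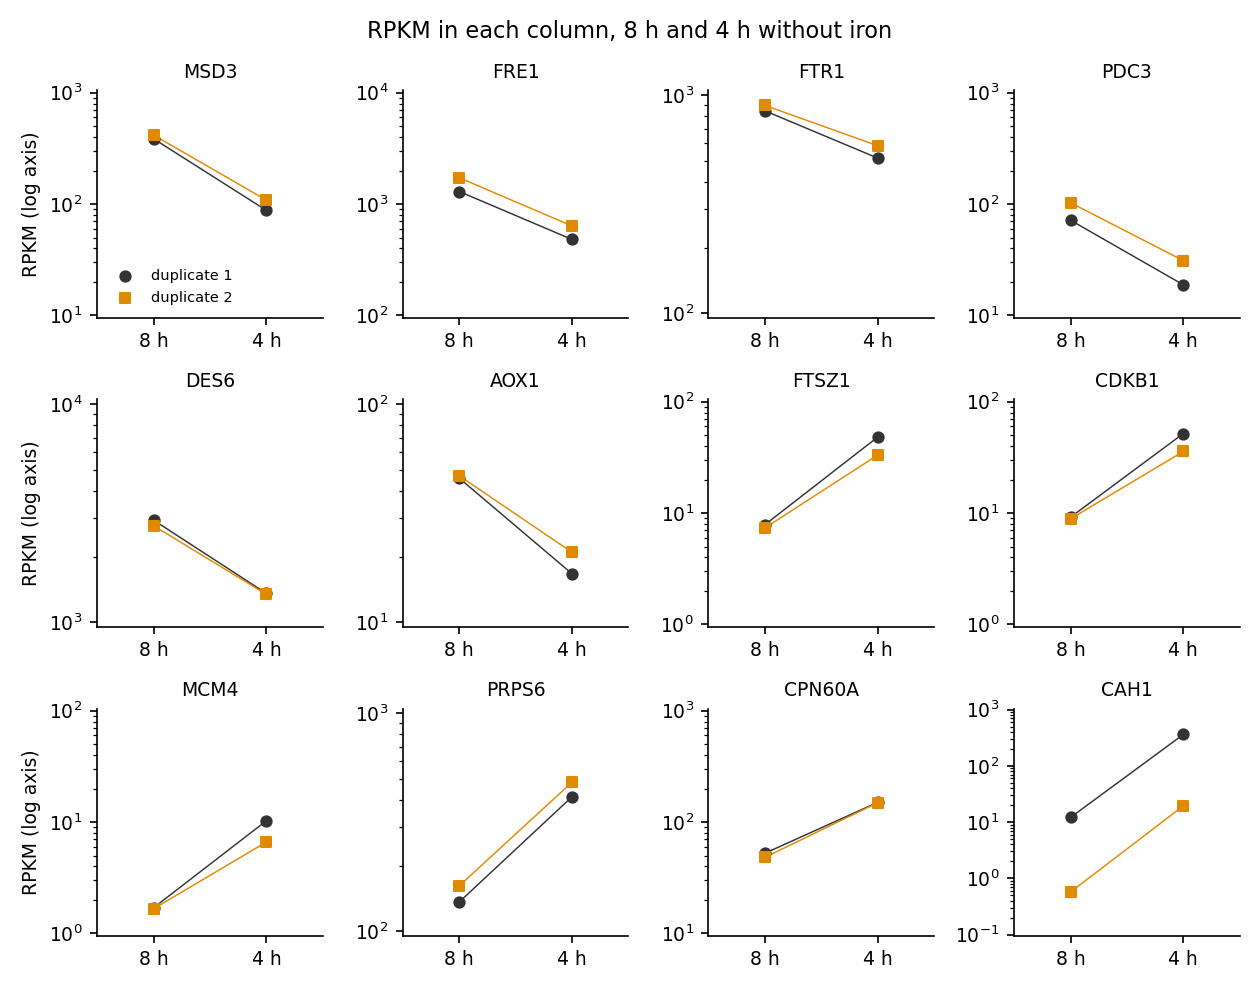
RPKM of 12 transcripts in each column, on log axes that differ between panels, with 8 h left of 4 h; circles are duplicate 1, squares duplicate 2, and a line joins the columns of a duplicate. MSD3, FRE1, PDC3, DES6 and AOX1 were called higher at 8 h and FTSZ1, CDKB1, MCM4, PRPS6, CPN60A and CAH1 lower, FTR1 was not called because it changed by less than 2-fold, and in CAH1 duplicate 1 lies far above duplicate 2 at both times.

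The oxidase genes PTOX2 and AOX1 rose too. PTOX2 (Cre03.g172500), the plastid terminal oxidase that passes electrons from plastoquinol to oxygen, had 13.85 and 20.45 RPKM at 8 h and 4.50 and 6.29 RPKM at 4 h (log2 change 1.49, SE 0.18, adjusted p = 2.8e-05). AOX1 (Cre09.g395950), the mitochondrial alternative oxidase, had 45.7 and 46.9 RPKM at 8 h, against 16.7 and 20.9 RPKM at 4 h (log2 change 1.27, SE 0.15, adjusted p = 2.2e-05). PTOX1 and AOX2, which code for a second oxidase of each kind and were named after their values were seen, were not called (log2 changes 0.63 and -0.48). At 8 h AOX1 was still 1.98 below its 0 h level on the log2 scale. LHCSR1, a stress-related antenna protein that dissipates light energy, rose to 79.2 and 48.2 RPKM at 8 h, against 33.4 and 19.5 RPKM at 4 h. Its change of 1.24 came just under 2-fold when duplicate 2 of 4 h (0.98) or duplicate 1 of 8 h (1.00 after rounding) was left out. LHL3, related to early light-induced proteins, fell to 319 and 258 RPKM, against 643 and 622 RPKM at 4 h (log2 change -1.14). These 3 of 13 photoprotection genes, PTOX2 and LHCSR1 up and LHL3 down, were the ones called. The shares were 15.4% higher and 7.69% lower, beside 1.78% and 4.87% of all transcripts.

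No photosystem gene passed the call. None of 10 core genes of photosystem I, none of its 9 antenna genes and none of 13 core genes of photosystem II was called. The median log2 changes were -0.07, 0.04 and -0.22. In limma-trend without the 2-fold minimum, 0 photosystem I genes passed. Of the photosystem II core genes 7 were then lower (53.85%) and 0 higher, beside 24.3% and 17.3% of all transcripts. The most abundant photosystem I genes by rule were PSAE, with 4020 and 3249 RPKM at 8 h against 4463 and 3735 RPKM at 4 h, and LHCA1, with 3517 and 3715 RPKM at 8 h against 3432 and 3844 RPKM at 4 h. The groups of both genes overlapped.

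The antenna of photosystem II had a median of 0.46 over 11 genes. None passed 2-fold, but 6 were higher by the adjusted p alone, beside 17.3% of all transcripts, and 0 lower. LHCBM1 (Cre23.g766250), a chlorophyll-binding protein of that antenna, had 30040 and 26430 RPKM at 8 h, against 17270 and 15800 RPKM at 4 h (log2 change 0.77, adjusted p = 0.0017). Reads of LHCBM genes, which are copies of nearly the same sequence, could have been divided among them in counting, so their sum is the safer value. Summed over 8 genes, they held 10.2 and 9.74% of all RPKM at 8 h and 6.22 and 6.31% at 4 h.

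Among electron carriers, FDX2 (Cre16.g658400), a ferredoxin, rose to 7.55 and 11.99 RPKM at 8 h, against 1.97 and 1.79 RPKM at 4 h (log2 change 1.87, SE 0.17, adjusted p = 4.5e-06). NII1, the plastid nitrite reductase that takes its electrons from ferredoxin, rose by 1.30 on the log2 scale, with 5.08 and 5.94 RPKM at 8 h and 1.45 and 1.83 RPKM at 4 h. In its list of 21 tested nitrogen genes NAR1.3, described as a formate and nitrite transporter, was the other one higher (1.07). That made 9.52% of the list, beside 1.78% of all transcripts. The change of NAR1.3 was 0.94 with duplicate 1 of 4 h dropped and 0.90 with duplicate 2 of 8 h dropped. The main photosynthetic ferredoxin gene PETF had a log2 change of -0.49. Genes lower at 8 h included CCS1 and CCB1, which help to attach heme in the assembly of cytochromes, and PETO, a subunit associated with the cytochrome b6f complex (log2 changes -1.22, -1.19 and -1.05). With FDX4, named after its values were seen, they made 4 lower and 1 higher of 26 tested. That is 15.4% and 3.85%, beside 4.87% and 1.78% of all transcripts. Without duplicate 2 of 8 h the number lower was 2, and CCB1 then changed by -0.99.

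Genes of chlorophyll and heme synthesis had a median of -0.37 over 22 tested. Of these, 2 were called lower (9.09%) and 0 higher, beside 4.87% and 1.78% of all transcripts. By the adjusted p alone 12 were lower (54.55%) and 3 higher (13.64%), beside 24.3% and 17.3% of all transcripts. UROD1, uroporphyrinogen decarboxylase, had 75.4 and 70.6 RPKM at 8 h, against 162 and 181 RPKM at 4 h (log2 change -1.22). GSA, the aminotransferase that makes aminolevulinic acid, fell to 163 and 151 RPKM at 8 h, against 297 and 346 RPKM at 4 h. Its change of -1.02 stood close to the 2-fold minimum and was -0.85 without duplicate 2 of 4 h and -0.98 with columns centred on their medians. The number called lower in the list ranged from 1 to 4 when 1 column was left out, with 1 when this was duplicate 2 of 4 h, 3 for duplicate 1 of 8 h and 4 for duplicate 1 of 4 h.

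Genes of acetate use and mitochondrial energy metabolism had mostly small positive changes. Of 26 tested genes of the acetate, glyoxylate and tricarboxylic acid pathways, 2 rose (7.69%) and 0 fell, beside 1.78% and 4.87% of all transcripts. By the adjusted p alone 17 were higher (65.4%, beside 17.3% of all transcripts). PDC3 (Cre03.g165700), described as a subunit of the mitochondrial pyruvate dehydrogenase complex that feeds pyruvate carbon into the cycle, had 71.7 and 103 RPKM at 8 h, against 18.8 and 31.1 RPKM at 4 h (log2 change 1.78, SE 0.16, adjusted p = 3.5e-06). It stood in the fermentation list as well, as the 1 called of 13 tested genes there (7.69%, beside 1.78% of all transcripts). SCLA1, a subunit of succinyl-CoA ligase, had 107 and 124 RPKM at 8 h and 46.0 and 62.1 RPKM at 4 h. Its change of 1.09 was 0.92 without duplicate 1 of 4 h, which left 1 member called. The median of the acetate, glyoxylate and tricarboxylic acid list was 0.46. In the 80 genes of the mitochondrial respiratory chain the median was 0.24, and 39 (48.75%) were higher by the adjusted p alone, though AOX1 was the only one called, which is 1.25% of the list beside 1.78% of all transcripts. Summed, the respiratory genes gave 12910 and 13660 RPKM at 8 h and 10150 and 10930 RPKM at 4 h.

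Several genes at the entry to that metabolism rose as well. In a group of 16 glycolysis and pyruvate genes, put together after the values were seen, 5 were higher and 1 lower at 8 h, or 31.25% and 6.25%, beside 1.78% and 4.87% of all transcripts. PYK4b (Cre01.g057900), a pyruvate kinase, had 11.3 and 12.5 RPKM at 8 h and 2.92 and 4.10 RPKM at 4 h, a log2 change of 1.53. PPD1 (Cre10.g424750), pyruvate phosphate dikinase, which makes phosphoenolpyruvate, rose by 1.50, with 4.40 and 8.22 RPKM at 8 h and 1.07 and 1.99 RPKM at 4 h. The phosphofructokinase genes PFK1 and PFK2 and the dehydrogenase gene GAP1a changed by 1.03, 1.06 and 1.21, and the pyruvate kinase gene PYK5 by -1.06. Each of these 4 fell short of 2-fold when a column was left out (PFK1 0.97, GAP1a 0.95 and PYK5 -0.98 without duplicate 2 of 8 h, PFK2 0.83 without duplicate 1 of 4 h). Then 2 were higher without duplicate 2 of 8 h, and 3 were higher and 0 lower without duplicate 1 of 4 h. TPT1, described as a phosphate/phosphoenolpyruvate translocator, rose by 1.56, to 33.9 and 42.0 RPKM at 8 h against 9.95 and 14.9 RPKM at 4 h.

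Of 25 tested starch genes, 2 were higher (8.0%) and 0 lower, beside 1.78% and 4.87% of all transcripts. SSS1 (Cre04.g215150), a soluble starch synthase, which lengthens glucan chains, had 40.3 and 37.8 RPKM at 8 h and 12.45 and 12.6 RPKM at 4 h (log2 change 1.56, SE 0.18, adjusted p = 2.6e-05). The debranching enzyme gene ISA2 changed by 1.06, and by 0.89 without duplicate 1 of 4 h, which left 1 member called. An alpha-amylase-like gene outside the list, Cre08.g384750, rose by 1.51, to 12.6 and 11.7 RPKM at 8 h against 3.20 and 4.05 RPKM at 4 h.

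In lipid metabolism the chloroplast omega-6 desaturase gene DES6 (Cre13.g590500), which adds double bonds to plastid fatty acids, stood out by its level. It had 2934 and 2767 RPKM at 8 h, against 1355 and 1342 RPKM at 4 h (log2 change 1.08, SE 0.10, adjusted p = 3.9e-06). It was the 1 called of 4 tested desaturases (25%, beside 1.78% of all transcripts). Of the 4, 3 were higher by the adjusted p alone (75%, beside 17.3%). The 12 tested genes of fatty acid synthesis had a median of -0.64, with 0 called and 7 lower by the adjusted p alone, beside 24.3% of all transcripts. ACP2, an acyl carrier protein on which chains are built, had 2769 and 2487 RPKM at 8 h, against 4291 and 3840 RPKM at 4 h (log2 change -0.63, adjusted p = 8.2e-05). Without duplicate 1 of 8 h 1 member was called lower.

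**Figure D3:**
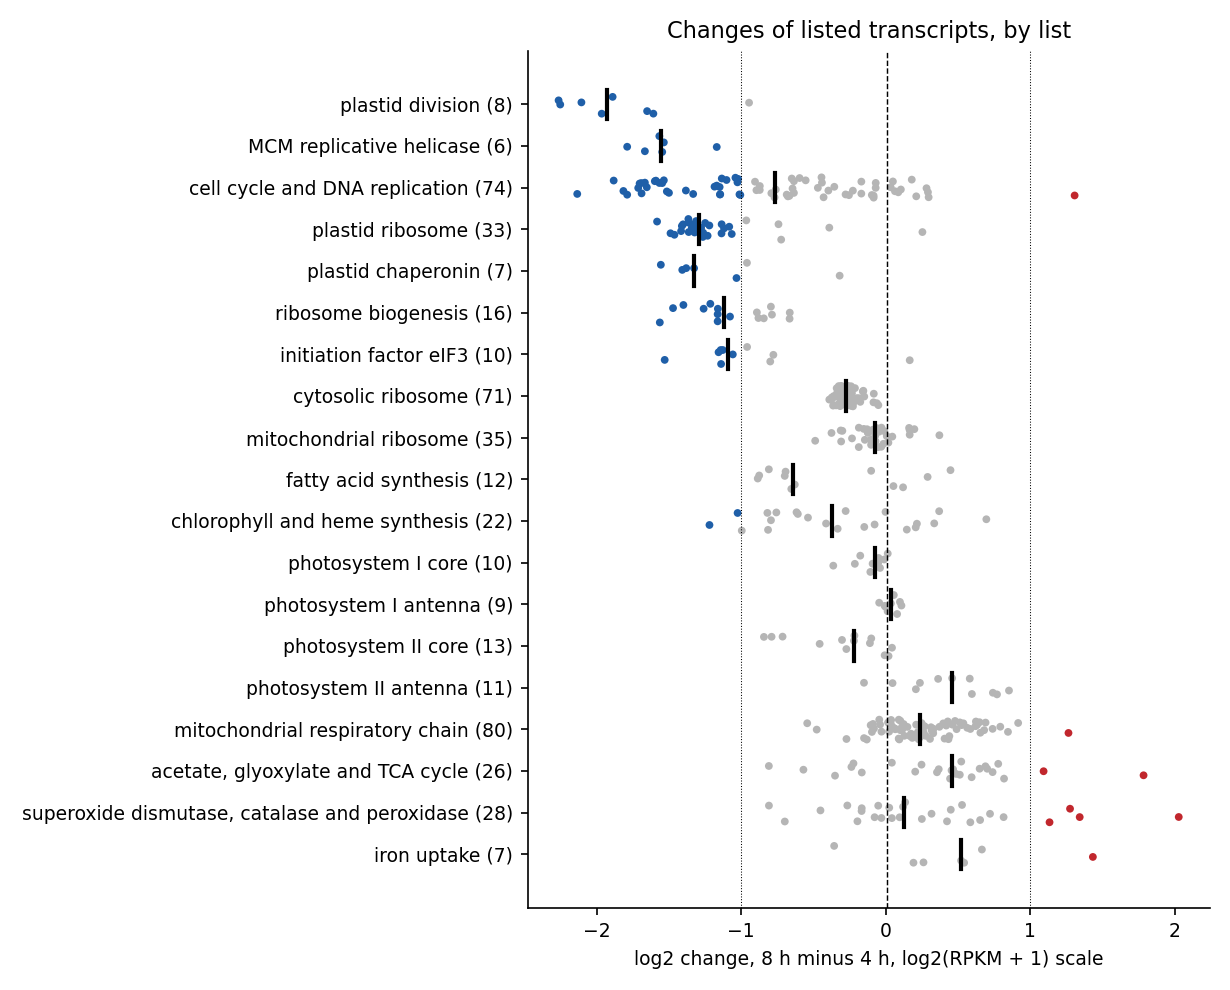
Log2 change at 8 h minus 4 h of every tested member of 19 lists, on the log2(RPKM + 1) scale, with the number of members in brackets. Red points were called higher and blue points lower, black ticks are list medians, the dashed line is the median of all transcripts tested and dotted lines mark 2-fold, and the lists of plastid division, the helicase, the plastid ribosome and ribosome biogenesis lie mostly left of zero by 2-fold or more.

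The list with most members lower was that of genes that copy DNA and divide cells. Of 74 tested cell cycle and replication genes, 31 fell and 1 rose, beside 4.87% and 1.78% of all transcripts, and the median was -0.76. Of the 31, 6 were under 1 RPKM at 8 h and entered only through 4 h, where they were high, and of the 62 members with at least 1 RPKM at both times 25 fell and 0 rose. CDKB1 (Cre08.g372550), a plant-type cyclin-dependent kinase that drives mitosis, had 9.18 and 8.87 RPKM at 8 h, against 51.8 and 35.7 RPKM at 4 h (log2 change -2.13, SE 0.28, adjusted p = 5.1e-05). CKS1, its small regulatory subunit, had 35.0 and 30.6 RPKM at 8 h and 151 and 101 RPKM at 4 h (log2 change -1.88). RPA70B, which coats single-stranded DNA, fell by 1.82. The columns of 8 h were close to each other, while duplicate 1 of 4 h was above duplicate 2 in all 3 genes, and the list summed to 538 and 519 RPKM at 8 h against 1238 and 921 RPKM at 4 h. Without duplicate 1 of 4 h 24 members were called lower. The 1 member higher, CYCD4, a D-type cyclin named after its values were seen, had 3.16 and 3.22 RPKM at 8 h and 0.533 and 0.869 RPKM at 4 h, and entered only through 8 h.

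All 6 subunit genes of the replicative helicase, MCM2 to MCM7, which unwinds DNA at the fork, were among the 31. Their log2 changes ran from -1.79 in MCM4 to -1.17 in MCM5. MCM4 (Cre07.g316850) had 1.70 and 1.67 RPKM at 8 h, against 10.3 and 6.63 RPKM at 4 h (SE 0.19, adjusted p = 1.1e-05). RIR1, the large subunit of the enzyme that makes deoxyribonucleotides, had 18.14 and 18.1 RPKM at 8 h and 59.9 and 39.8 RPKM at 4 h (log2 change -1.38). Among genes for structural maintenance of chromosomes, SMC2 and SMC4, the pair that forms the core of condensin, fell by 1.50 and 1.33. With SMC5B, whose change of -1.15 was -0.96 without duplicate 1 of 4 h, they were the 3 lower of 7 tested, a group put together after values were seen. SMC4 and SMC5B were under 1 RPKM at 8 h and entered only through 4 h, and of the 5 members with at least 1 RPKM at both times 1 was lower. Only 1 of 15 listed histone genes was abundant enough to be tested, the H3 variant gene HTV3, which fell by 1.43. The H2A variant gene Cre13.g567700, found by its description after values were seen, fell to 163 and 135 RPKM at 8 h, against 559 and 388 RPKM at 4 h (log2 change -1.64, SE 0.14). With HTV3 and HBV1 (-1.15) it was 1 of the 3 tested, all lower, of 17 genes described as histones.

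Genes for division of the chloroplast had the lowest median of any list. The single chloroplast of this alga is divided by an inner ring of FtsZ proteins, placed by the Min proteins, and an outer dynamin ring. Of 8 such genes, grouped after the values were seen, 7 fell (87.5%, beside 4.87% of all transcripts), and the median was -1.93. FTSZ1 (Cre02.g118600), a ring protein, had 7.86 and 7.35 RPKM at 8 h, against 48.2 and 33.2 RPKM at 4 h (log2 change -2.25, SE 0.23, adjusted p = 8.7e-06). MIND1 (Cre12.g522950), which helps to place the ring, had 14.5 and 14.25 RPKM at 8 h and 85.6 and 62.1 RPKM at 4 h (log2 change -2.26, SE 0.33). MINE1, MINE2, FTSZ2 and the dynamin gene DRP5B fell by 2.11, 1.97, 1.65 and 1.89, and an ARC6-like gene by 1.61. DRP5A, at -0.95, was the member not called, and 7 were called lower without any 1 of the 4 columns.

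Other large decreases were in SPR1 (Cre02.g130150), described as a putative protein associated with cortical microtubules. It had 83.3 and 91.0 RPKM at 8 h, against 550 and 406 RPKM at 4 h (log2 change -2.43, SE 0.20, adjusted p = 2.7e-06). The transcripts Cre05.g237150, Cre02.g101700, Cre06.g251750 and Cre12.g503900, described only as hypothetical or predicted proteins, fell by 2.39, 2.28, 2.19 and 2.14. MOT38, also described as a predicted protein, fell by 2.08. The flagellar associated protein gene FAP24 fell by 1.82, although its list of 220 tested genes had a median of 0.17. The other members lower were FAP281 (-1.22) and FAP172 (-1.13, and -0.90 without duplicate 2 of 8 h). These 3 made 1.36% of the list, with 0 higher, beside 4.87% and 1.78% of all transcripts.

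Most genes of the plastid ribosome fell. Of 33 nuclear genes tested, which supply proteins for translation inside the chloroplast, 28 fell (84.85%, beside 4.87% of all transcripts) and 0 rose (1.78% of all), and the median was -1.29. PRPS6 (Cre12.g520600), a small subunit protein, had 136 and 161.5 RPKM at 8 h, against 413 and 482 RPKM at 4 h (log2 change -1.58, SE 0.09, adjusted p = 8.6e-07). PRPL18 (Cre01.g052100), of the large subunit, had 182 and 153 RPKM at 8 h and 503 and 441 RPKM at 4 h (log2 change -1.49, SE 0.08). In both genes duplicates differed far less than times. PRPS13 and PRPL19 followed with -1.46 and -1.42. The 5 members not called were PRPL33 at -0.96, PRPL11 at -0.74, PRPS1 at -0.72, and the plastid-specific proteins PSRP-4 at -0.39 and PSRP-1 at 0.25, listed here because the rest of the list had fallen. Together the 33 genes held 6133 and 5815 RPKM at 8 h, against 14070 and 14070 RPKM at 4 h, and 28 or 29 were called lower without any 1 of the 4 columns.

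Genes of the chaperonin that folds proteins in the plastid stroma also fell. CPN60A (Cre32.g781650), one of its large subunits, had 52.5 and 48.2 RPKM at 8 h, against 150.4 and 149 RPKM at 4 h (log2 change -1.56, SE 0.11, adjusted p = 1.4e-06). CPN60B2 and CPN60B1, the other large subunits, fell by 1.38 and 1.33, and the small co-chaperonin CPN23 by 1.41. Of 7 plastid chaperonin genes, grouped after the values were seen, 5 were lower (71.43%) and 0 higher, beside 4.87% and 1.78% of all transcripts. The fifth, CPN11, changed by -1.03, and by -0.98 either without duplicate 2 of 8 h or with centred columns. The wider list of 105 chaperones and folding helpers had a median of -0.21. In it 7 were lower (6.67%) and 1 higher (0.95%), near the 4.87% and 1.78% of all transcripts. The 1 higher was the DnaJ-like gene DNJ6 (1.25), named after its values were seen. The DnaJ-like gene DNJ13 had the lowest change of that list, -1.59.

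Among other ribosomes, none of the 71 genes of the cytosolic ribosome changed by 2-fold, yet 53 were lower by the adjusted p alone, beside 24.3% of all transcripts, and all 71 changes lay between -0.39 and -0.05, with a median of -0.27. These abundant RNAs summed to 264300 and 263800 RPKM at 8 h, which was 30.5% of all RPKM in either column. At 4 h they summed to 324000 and 311900 RPKM, or 35.6 and 34.65%. The 35 genes of the mitochondrial ribosome had a median of -0.07, with 0 called and 2 lower by the adjusted p alone.

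Genes for factors that build cytosolic ribosomes and start translation passed 2-fold in number. Of 16 tested genes of ribosome biogenesis 9 fell (56.25%, beside 4.87% of all transcripts) and 0 rose, and all 16 were lower by the adjusted p alone (24.3% of all transcripts), with a median of -1.12. NOP10 (Cre05.g237700), a small nucleolar protein of the particles that modify ribosomal RNA, had 41.9 and 32.4 RPKM at 8 h, against 127 and 96.5 RPKM at 4 h (log2 change -1.56, SE 0.13, adjusted p = 2.4e-06). NHP2 of the same particles and NOP1, the fibrillarin-type protein, fell by 1.40 and 1.26, and RPA12, a subunit of RNA polymerase I, which transcribes ribosomal RNA, by 1.47. In 31 tested tRNA synthetases and translation factors 8 were lower (25.8%) and 0 higher. EIF3I (Cre03.g194400), of the initiation factor that brings the small subunit to the mRNA, had 58.0 and 44.55 RPKM at 8 h and 181 and 122 RPKM at 4 h (log2 change -1.53, SE 0.10). EIF4E, which binds the cap, fell by 1.29. EIF3I was counted again in the eIF3 group that follows, so these counts are not separate. Of 10 genes of the factor eIF3, grouped after the values were seen, 6 fell, and the count was 5 to 7 when 1 column was left out.

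The largest change of any named transcript came with duplicates far apart in level. CAH1 (Cre04.g223100), the periplasmic carbonic anhydrase that supplies carbon dioxide to cells at low CO2, had 12.1 and 0.569 RPKM in duplicates 1 and 2 at 8 h, against 362 and 19.4 RPKM at 4 h. Duplicate 1 stood far above duplicate 2 at both times, and the change was -4.79 in duplicate 1 and -3.70 in duplicate 2 (log2 change -4.25, SE 1.11, adjusted p = 0.0076). The call was lost when duplicate 1 of 4 h (-2.34, adjusted p = 0.15) or duplicate 2 of 8 h (-2.96, adjusted p = 0.11) was left out, and with the 4 columns alone and no block (adjusted p = 0.13). It was the only one called of 36 tested genes for concentrating inorganic carbon (2.78%, beside 4.87% of all transcripts lower), whose median was -0.01. With duplicate 2 of 4 h or duplicate 1 of 8 h dropped, 3 of the list were lower, and without either of the other columns 0 were. RHP1, a CO2-responsive Rh protein of the list of nitrogen genes, had 5.42 and 7.82 RPKM at 8 h and 20.6 and 22.1 RPKM at 4 h (log2 change -1.57, SE 0.16, adjusted p = 8.6e-06).

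Transcripts with neither symbol nor description were among the largest changes. Cre03.g184250 had 52.2 and 47.7 RPKM at 8 h, against 6.92 and 8.74 RPKM at 4 h (log2 change 2.54, SE 0.24), from 1377 and 1372 reads at 8 h and 216 and 259 reads at 4 h. Cre02.g087788 had 7.17 and 3.29 RPKM at 8 h and 42.4 and 41.5 RPKM at 4 h (log2 change -2.86, SE 0.20), from 10 and 5 reads at 8 h and 70 and 65 at 4 h. Their groups were far apart in RPKM. The reads of Cre02.g087788 rest on the shortest length tried. Its values at 8 and 4 h would also fit fewer reads on a shorter length. Cre02.g100550, at 2.93, rested on 30 and 15 reads at 8 h and 0 and 5 at 4 h, and Cre54.g790802, at -2.52, on 8 and 0 reads at 8 h and 40 and 16 at 4 h. The reads of both depend on the length worked out for them, and their values at these times would also fit fewer reads. Both calls were lost without duplicate 1 of 4 h (adjusted p = 0.12 and 0.09), that of the first also without duplicate 1 of 8 h (0.052) and that of the second also with duplicate 2 of 8 h left out (0.16). Among genes with a name, SPP1B (Cre06.g267700), a signal peptide peptidase that cuts proteins within membranes, rose to 8.08 and 10.2 RPKM at 8 h, against 1.41 and 1.88 RPKM at 4 h (log2 change 1.93, SE 0.17). The NUDIX hydrolase gene Cre16.g690650 and TEF13 (Cre27.g775100), described as a predicted protein, rose by 1.75 and 1.79.

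**Figure D4:**
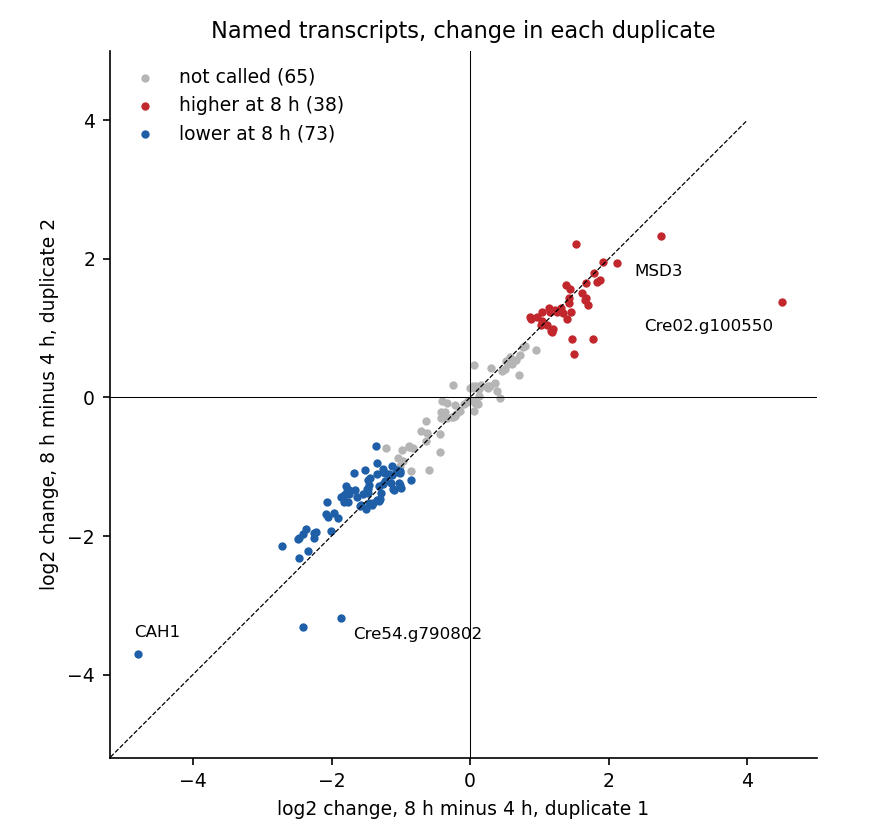
Log2 change at 8 h minus 4 h of the 176 named transcripts in duplicate 1 (horizontal axis) and duplicate 2 (vertical axis), with red for higher, blue for lower and grey for not called. Most points lie near the dashed line of equal change, and Cre02.g100550, Cre54.g790802 and CAH1 are among those far from it.

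To place this step within the course, the change from 4 to 8 h was compared with the steps on either side in the same fit. The steps share columns, so their values are given side by side. From 2 to 4 h, 38 transcripts were higher (0.305%) and 131 lower (1.05%), and from 8 to 12 h 117 were higher (0.94%) and 340 lower (2.73%). The change from 4 to 8 h was above that from 2 to 4 h, by at least 1 on the log2 scale, in 389 transcripts (3.12%) and below it in 207 (1.66%), 596 in all (4.79%). It was above that from 8 to 12 h in 403 (3.24%) and below it in 561 (4.51%), 964 in all (7.74%). These counts rested on single columns and on the pairing of duplicates. The 596 became 74 without duplicate 1 of 4 h and 256 without the duplicate number in the fit, and the 964 became 241 without duplicate 1 of 8 h and 625 without the duplicate number.

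Plastid ribosome genes turned down within this step, and their median was lower again at 12 h. Their median against 0 h was 0.44, 0.44, -0.85, -2.33 and -0.17 at 2, 4, 8, 12 and 24 h. In 27 of the 33 genes the change from 4 to 8 h was below that from 2 to 4 h, beside 1.66% of all transcripts. This number was 10 when duplicate 1 of 4 h was dropped and 18 with no block for duplicates, and 25 to 28 when another column was dropped. In 0 of the 33 was the change called different from that between 8 and 12 h. The plastid chaperonin genes ran alike, with medians of -0.17, -1.43 and -2.56 at 4, 8 and 12 h.

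Genes of cell division and replication reached medians below their 0 h level at 8 h. The 6 helicase genes stood at 1.98, 1.20, -0.40, 0.14 and 1.55 against 0 h at 2, 4, 8, 12 and 24 h. In all 6 the change from 4 to 8 h was below that from 8 to 12 h, as it was in 36 of the 74 cell cycle genes and all 8 plastid division genes, beside 4.51% of all transcripts. With duplicate 1 of 8 h dropped the numbers were 3, 10 and 1. With duplicate 2 of 8 h dropped they were 6, 24 and 4, with duplicate 1 of 4 h dropped 6, 28 and 5, and with no block for duplicates 6, 26 and 4. Set against the step from 2 to 4 h, the change was below it in fewer, 1 helicase gene, 8 cell cycle genes and 4 plastid division genes, beside 1.66% of all transcripts. Dropping duplicate 1 of 4 h left 0 of each. Dropping the others, namely duplicates 1 and 2 of 2 h, duplicate 2 of 4 h and duplicates 1 and 2 of 8 h, gave 6, 3, 6, 2 and 6 cell cycle genes and 2, 2, 1, 1 and 3 plastid division genes, with 1 helicase gene for duplicate 2 of 4 h and 0 otherwise. No block gave 0, 1 and 0 for the 3 lists. RIR1 averaged 85.0, 49.9, 18.1 and 37.55 RPKM at 2, 4, 8 and 12 h. FTSZ1 averaged 70.7, 40.7, 7.61 and 9.62 RPKM at these times. The median of plastid division genes was 1.71, 1.23, -0.65, -0.77 and 1.25 at 2, 4, 8, 12 and 24 h.

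**Figure D5:**
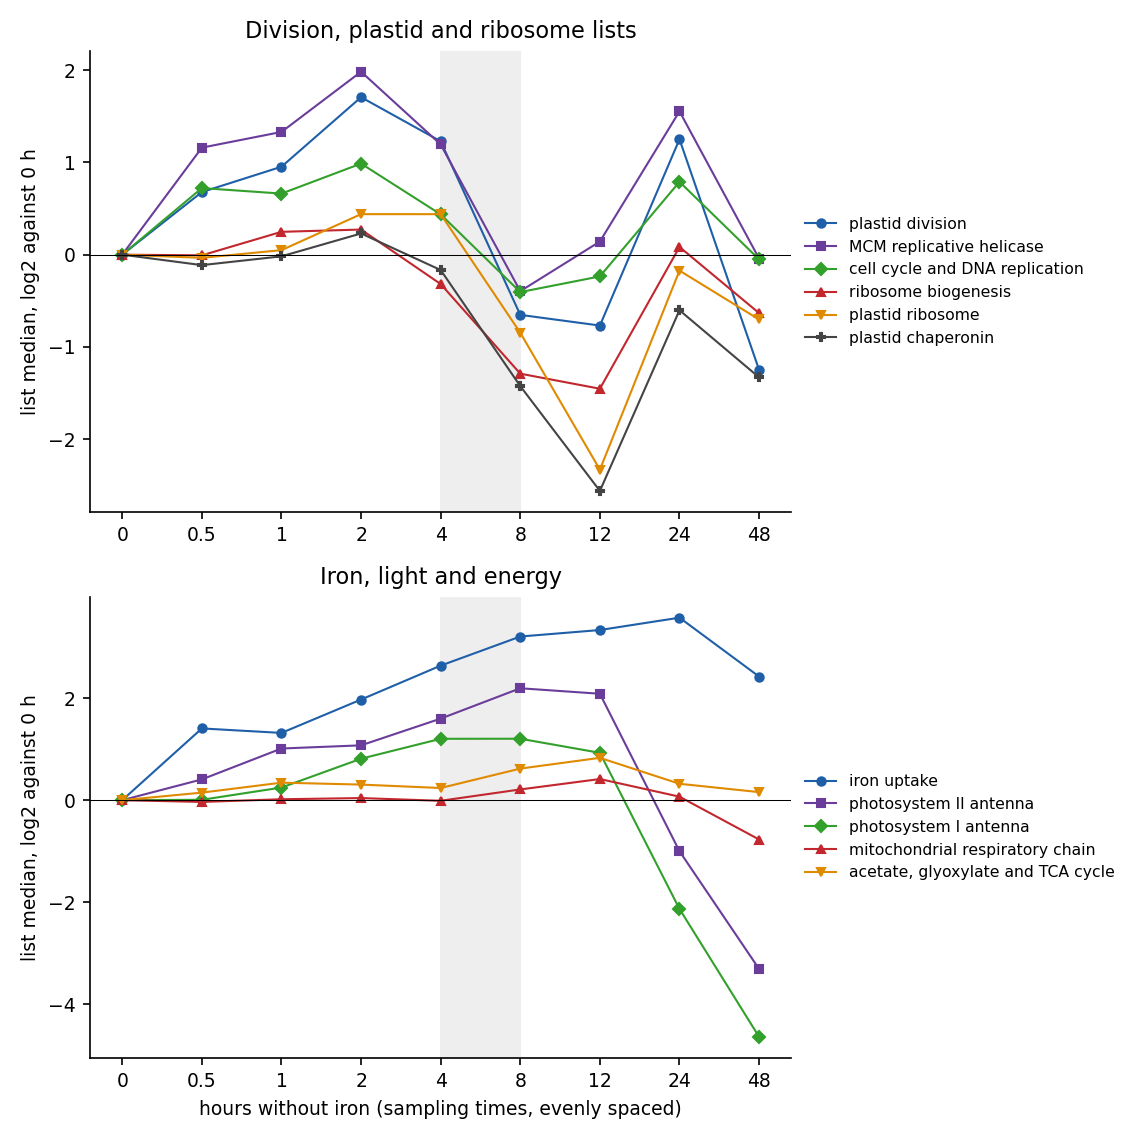
Median log2 change against 0 h of the tested members of 11 lists at the 9 sampling times, which are evenly spaced on the axis, with the step from 4 to 8 h shaded. In the upper panel all 6 lists drop in the shaded step. The plastid ribosome and chaperonin lists drop much further to 12 h, and ribosome biogenesis and plastid division slightly further. In the lower panel iron uptake and the photosystem II antenna climb across the shaded step while the photosystem I antenna stays at 1.20.

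Iron uptake had medians of 1.97, 2.64, 3.21 and 3.33 at 2, 4, 8 and 12 h, with 0 of 7 genes called above or below the step before. FRE1 was the 1 whose change was above that from 8 to 12 h (difference 1.18, adjusted p = 0.046), and this call was lost when any 1 of the 6 columns was dropped (adjusted p from 0.067 to 0.30) and with no block (0.38). The photosystem II antenna went through 1.07, 1.60, 2.19 and 2.08 at these times. The acetate, glyoxylate and tricarboxylic acid list stood at 0.31, 0.24, 0.62 and 0.83, and that of the respiratory chain at 0.04, -0.01, 0.21 and 0.41.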

How the data were processed

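Values were RPKM per transcript as deposited by the authors, in 2 columns for each of 9 times; the unit was read from the values, since the file header names none. The submitters' processing notes name Bowtie, an aligner. Its version, the counting software, filters and the genome build were not given in the sources used here. The deposited table supplied gene names, 0 columns of values were left unused, and reads of near-identical copies or overlapping transcripts may have been shared.

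Whole reads were recovered from the RPKM values (Python 3.11.15, pandas 2.3.3, numpy 2.4.6) for 95.2% of transcripts, of which 99.96 to 100% of values per column were whole within 0.05 reads, a share that follows largely from the selection. Each transcript was given the shortest length tried that made its values whole, so the reads of some transcripts may be too many or too few. At 95% confidence a value of 0 allows up to 3 reads, which is 0.0565 and 0.0518 RPKM at 8 h and 0.0477 and 0.0503 RPKM at 4 h for the median length of 2284 bases; this covers counting error only.

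Changes were tested with limma-trend (limma 3.58.1, R 4.3.3) on log2(RPKM + 1) of all 18 columns, with a factor for time and a block for the duplicate number (8 residual degrees of freedom), in the 12452 transcripts with a mean of at least 1 RPKM at 8 h or 4 h. P-values were adjusted by Benjamini-Hochberg over these, and a call needed an adjusted p below 0.05 together with a 2-fold difference. Differences between steps were contrasts of the same fit, called at a difference of at least 1 on the log2 scale. Duplicate numbers come from the column names. Deviations from the time means of same-numbered columns correlated at 0.32 to 0.74 over 36 pairs of times (median 0.51), so the numbers pair the columns. The procedure was tested on simulated data.

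The comparison, its transcripts and 44 gene lists were chosen with earlier results of these data known. A further 8 groups, for plastid division, the MCM helicase, eIF3, plastid chaperonin, chromosome maintenance, glycolysis and pyruvate, described histones and the LHCBM family, were put together after values were seen. Named transcripts were the 12 highest and 12 lowest called ones with a symbol or description, the 4 largest called changes of each list or its 2 most abundant members where none was called, all tested iron uptake genes, the 2 highest and 2 lowest called ones without annotation, and the 5 largest differences between steps in each direction; further list members are named where a count of 5 or fewer, or a contrast with the rest of a list, needs them, after their values were seen. Alternatives were other pseudocounts, filters and thresholds, median centring, no block, the 4 columns alone and leaving out each column; limma-voom on the recovered reads and leaving out transcripts with a mean under 1 RPKM in either group were added after seeing the data. No sequences are shown, and coordinates were not used here.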

Additional observations from a re-analysis of the deposited data

Results flagged for a closer look

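Transcripts whose change from 4 to 8 h differed from that of a neighbouring step, by a contrast in limma-trend, are given with the difference on the log2 scale, the 5 largest in each direction among those with a symbol or description. The steps share columns.

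Against the step from 2 to 4 h, the metalloproteinase gene MMP4 had the largest positive difference, 3.33 (adjusted p = 0.00029), with means of 7.125, 1.00, 4.08 and 1.53 RPKM at 2, 4, 8 and 12 h. The predicted protein genes Cre06.g305100, CGL41 and TEF13 differed by 2.62, 2.55 and 2.49, and the dynein assembly gene ODA7 by 2.23. TEF13 averaged 75.95, 47.4, 167 and 567 RPKM and ODA7 25.4, 8.69, 16.2 and 8.66 RPKM at these times. The negative differences were -2.33 in Cre02.g101700, -2.18 in Cre05.g237150, -2.17 in SPR1, -2.12 in Cre12.g503900 and -1.92 in Cre06.g251750. SPR1 averaged 567, 478, 87.15 and 84.5 RPKM at 2, 4, 8 and 12 h. All 5 negative differences lost their call when duplicate 1 of 4 h was dropped (adjusted p from 0.10 to 0.17), as did TEF13 (0.18) and CGL41 (0.069). Cre05.g237150 and CGL41 also lost it without duplicate 2 of 4 h (0.056 and 0.052), and Cre05.g237150 with no block for duplicates (0.059).

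Against the step from 8 to 12 h, Cre44.g787933 (expressed hypothetical protein) differed by 2.52, Cre06.g305100 by 2.48, the flagellar gene FAP56 by 2.39, the pherophorin gene PHC22 by 2.29 and MMP4 by 2.27. PHC22 averaged 99.3, 64.5 and 7.83 RPKM at 4, 8 and 12 h. The glycine-rich RNA-binding protein gene Cre09.g392350 differed by -2.70, with 744, 375 and 1247 RPKM at these times. FTSZ1 differed by -2.56, the high mobility group protein gene Cre16.g672300 by -2.40, the ribonucleotide reductase gene RIR1 by -2.39 and Cre03.g148500 by -2.38. Cre03.g148500 averaged 0.932, 1.11 and 10.98 RPKM. With duplicate 1 of 8 h dropped, PHC22 lost its call (adjusted p = 0.060) and FTSZ1 stood at the threshold without passing it (0.050). MMP4 and Cre06.g305100 were among the 5 largest positive differences of both contrasts. Others named here, such as SPR1, ODA7, FAP56 and FTSZ1, were also called in both. The call of FTSZ1 against the step from 2 to 4 h (-1.48) was lost with no block (adjusted p = 0.19 by limma-trend). It was also lost when any column but duplicate 2 of 8 h was dropped. ODA7 lost its call against the step from 8 to 12 h without duplicate 1 of 8 h (1.37). FAP56 lost that against the step from 2 to 4 h without duplicate 1 of 4 h (1.54). The calls of MMP4 and Cre06.g305100 between 8 and 4 h were lost without duplicate 1 of 8 h (1.00 after rounding, and 0.70). That of Cre06.g305100 was also lost when duplicate 1 of 4 h was dropped (0.93). Cre06.g305100, CGL41 and Cre03.g148500 were under 1 RPKM at 4 h and entered only through 8 h.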

How the results depend on the processing

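The counts of 222 higher and 607 lower stayed within 1.5 times under the planned settings, except pseudocounts of 0.1 and 5 and no minimum fold. A pseudocount of 0.1 gave 392 higher, 1077 lower and 1485 transcripts differing from the step between 8 and 12 h; a pseudocount of 5 gave 93, 213, 328 and, for the step between 2 and 4 h, 228. No minimum fold gave 2154, 3025, 2458 and 1470. A threshold of 0.01 gave 327 for the step between 2 and 4 h. limma-voom on recovered reads gave 411 higher and 1130 lower. With no replicate block, in a fit that ignores the pairing, 218 were higher and 599 lower, but the step differences became 256 and 625. Centring moved the median change from 0.01 to 0.06 and gave 262 and 513. Leaving out 1 column gave 183 to 289 higher, 526 to 701 lower, 74 to 613 differing from the step between 2 and 4 h and 241 to 1151 from that between 8 and 12 h. With a column left out, the lone column of its time is assumed to vary like the others. Of 176 named transcripts, 111 were called and 87 of these under every setting that left out a column, and 0 of the 111 changed sign in any setting, while 13 of those not called did; APG10 lost its call with no replicate block (adjusted p = 0.06), and with the 4 columns alone and no replicate block CAH1, LHCSR1, FAP172, Cre54.g790802 and Cre06.g305100 did (0.06 to 0.13). The cause was not tested. Depth limits weak transcripts, such as FER2 at 11 and 16 reads at 4 h.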

Other observations

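Few flagellar genes were called in this step, and their medians were lower in the steps around it. Of the flagellar associated protein genes 0 were higher and 3 lower (1.36%), beside 1.78% and 4.87% of all transcripts. The 220 tested flagellar associated protein genes had median log2 changes of -0.48 from 2 to 4 h, 0.17 from 4 to 8 h and -0.75 from 8 to 12 h. In 92 of them the change from 4 to 8 h was above that from 8 to 12 h, beside 3.24% of all transcripts, and in 48 above that from 2 to 4 h, beside 3.12%. With duplicate 1 of 8 h dropped, the 92 became 9 and the 48 became 29. The 48 became 2 with duplicate 1 of 4 h dropped, 32 with its duplicate 2 dropped, 23 and 74 with duplicates 1 and 2 of 2 h dropped in turn, and 20 with no block for duplicates. The 76 genes of dyneins, radial spokes and intraflagellar transport had 33 and 7 such members, with medians of -0.31, 0.21 and -0.74 over the 3 steps. The 33 became 2 with duplicate 1 of 8 h dropped, and the 7 ranged from 1, with duplicate 1 of 4 h dropped, to 13, with duplicate 2 of 2 h dropped, being 4 with duplicate 1 of 2 h or of 8 h dropped or with no block. CNK1, a NimA-related kinase of that list, was the 1 called lower (1.32%, beside 4.87% of all transcripts). It had 3.53 and 3.01 RPKM at 8 h and 11.4 and 7.96 RPKM at 4 h. The tubulin genes TUA2 and TUB2 had log2 changes of 0.08 and 0.23.

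APK1, the kinase that activates sulfate, was the 1 lower of 22 sulfur genes (4.545%, near the 4.87% of all transcripts), with 48.3 and 40.6 RPKM at 8 h and 134 and 98.5 RPKM at 4 h (log2 change -1.36). The alkaline phosphatase gene PHO1 stood just at 2-fold (1.00), with 1.25 and 1.64 RPKM at 8 h against 0.228 and 0.212 RPKM at 4 h. It entered only through 8 h, where it was high, and its call was lost without duplicate 2 of either time (0.96 and 0.90). SHMT2, a serine hydroxymethyltransferase, was the 1 lower of 16 photorespiration genes (6.25%, also near that share), with 58.2 and 69.2 RPKM at 8 h and 127 and 174 RPKM at 4 h (log2 change -1.22). APG10, an autophagy gene, had 0.355 and 0.796 RPKM at 8 h against 2.60 and 4.25 RPKM at 4 h, and it was the 1 lower of 35 in its list (2.86%). It entered only through 4 h, where it was high. Among 31 tested organelle proteases SPP1B, CLPD and DEG1A rose (1.93, 1.24 and 1.01) and DEG9 fell by 1.41. That is 9.68% higher and 3.23% lower, beside 1.78% and 4.87% of all transcripts. DEG1A came to 0.89 without duplicate 2 of 4 h and 0.97 without duplicate 2 of 8 h. None of 44 proteasome and ubiquitin genes was called by limma-trend, with 20 lower by the adjusted p alone, beside 24.3% of all transcripts, and a median of -0.21.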
